A study of Mus musculus with 14 samples.

Results

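The genes examined here are the 4 ErbB receptors (Egfr, Erbb2, Erbb3 and Erbb4), 5 of their EGF-like ligands (Hbegf, Tgfa, Btc, Ereg and Nrg1) and Errfi1, an intracellular inhibitor of the receptors. They were chosen by name and not by their values, though with earlier results of these data known. All 10 were present among the 16124 genes of the deposited table. RNA was sequenced from mammary epithelial cells (MECs) of 7 WT and 7 Usp22 OE/OE nulliparous females aged 3.5 months, with 1 library per mouse and each OE/OE mouse matched to a WT littermate. The pairs carried the numbers 1, 3, 4, 5, 6, 7 and 8. Usp22 encodes a deubiquitinase of the SAGA complex, and the question was which genes change in MECs when it is overexpressed. OE/OE mice carried on both ROSA26 alleles a FLAG- and MYC-tagged mouse Usp22 cDNA under the CAGGS promoter, whose LoxP-flanked stop had been removed by Zp3-Cre in the oocyte, so that the transgene was active in all tissues, stroma included. WT littermates carried no overexpressed allele. MECs were prepared by enzymatic digestion and centrifugation and were not sorted, and neither the strain, nor the estrous stage, nor whether any mouse still carried Zp3-Cre was given in the sources used here.

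ErbB receptors are cell-surface tyrosine kinases that work as dimers. EGFR binds EGF, TGF-alpha, amphiregulin, HB-EGF, betacellulin and epiregulin, ERBB4 binds neuregulins and some of the EGFR ligands, ERBB3 binds neuregulins but has little kinase activity, and ERBB2 has no known ligand and acts as the shared partner. The ligands are made as membrane-bound precursors and are released by ADAM proteases. In the mammary gland amphiregulin, acting on stromal EGFR, is required for ductal outgrowth at puberty, and neuregulin with ERBB3 and ERBB4 acts in lobuloalveolar development.

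The ligands share an EGF-like stretch of 6 cysteines, and the coding sequences of 4 of them are shown here because this is what makes them 1 family. That of Hbegf is not printed. The stretch was searched for in GENCODE M21 coding sequences as cysteines separated by 7, 4 to 5, 10 to 13, 1 and 8 residues. It was found once in the longest matching coding sequence of each of the 5 ligands, in 2 coding exons in each. The 6 cysteine codons are in capitals below, 5′ to 3′ on the coding strand, and each interval (GRCm38) also spans the intron between the 2 exons.
Tgfa, chr6:86263200-86269960, plus strand: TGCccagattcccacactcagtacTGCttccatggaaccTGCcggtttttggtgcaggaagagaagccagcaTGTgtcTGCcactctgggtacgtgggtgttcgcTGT
Btc, chr5:91362421-91366197, minus strand: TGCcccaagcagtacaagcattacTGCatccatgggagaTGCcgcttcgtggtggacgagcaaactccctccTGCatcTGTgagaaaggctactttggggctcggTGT
Ereg, chr5:91088496-91089111, plus strand: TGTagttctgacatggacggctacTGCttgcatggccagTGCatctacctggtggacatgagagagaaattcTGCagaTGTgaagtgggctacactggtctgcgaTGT
Nrg1, chr8:31837698-31849398, minus strand: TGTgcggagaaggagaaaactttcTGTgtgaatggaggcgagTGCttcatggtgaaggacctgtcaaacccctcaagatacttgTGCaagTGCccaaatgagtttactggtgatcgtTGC
The stretch encodes 36 residues in Hbegf, Tgfa, Btc and Ereg and 40 in Nrg1. Among the first 4, identity of the encoded residues was between 41.7% (Tgfa and Ereg) and 55.6% (Hbegf and Btc). Nrg1, whose product binds ERBB3 and ERBB4 rather than EGFR, was between 27.5% (with Tgfa and with Ereg) and 37.5% (with Hbegf) identical to the others. Each comparison includes the cysteines by which the stretch was selected, and those with Nrg1 ran over 40 aligned columns rather than 36. Ereg (chr5:91074622-91093646) and Btc (chr5:91357261-91402994) lie in 1 cluster of ligand genes with Areg (chr5:91139599-91148432) and Epgn (chr5:91027464-91035215).

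Between 20125106 and 41835978 fragments per library were counted on genes (median 37838929), fewest in the WT mice of pairs 1 and 8. The lowest count behind any value of the 10 genes was 108 fragments, for Ereg. Usp22 was between 3500 and 5380 normalized counts in WT and between 74948 and 144288 in OE/OE mice, and all 14 libraries thus fitted their genotype. A normalized count is the fragments counted on a gene divided by the size factor of the library. The 11 pan-epithelial markers were expressed in all libraries, with a summed level of 362095 to 592706 in WT and 400637 to 691700 in OE/OE, but markers of stromal cells were also present. The 9 fibroblast markers, for example, summed to 92218.6 to 194252 in WT and 59825.2 to 145287 in OE/OE. In such a mixture fewer cells of a type and less RNA per cell cannot be told apart.

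Levels were compared between genes per kb of merged exons, and the same order of receptors was found in every library. Erbb3 was the highest receptor with 1379 ± 326 normalized counts per kb in WT (SD, n = 7), Erbb2 followed with 687 ± 114, Egfr with 283 ± 74.2 and Erbb4 was the lowest with 50.1 ± 18.3. This order, Erbb3, Erbb2, Egfr, Erbb4, held in 14 of 14 libraries. Of the summed receptor level per kb, Erbb3 made up 57.1% ± 3.43 in WT and 57.5% ± 4.84 in OE/OE, and Erbb2 made up 29.0% ± 3.27 and 28.5% ± 4.30. Egfr contributed 11.8% ± 1.46 in WT and 12.0% ± 2.55 in OE/OE, and Erbb4 only 2.11% ± 0.626 and 2.00% ± 0.798. No difference in receptor share between genotypes passed the test (exact sign-flip test, two-sided, p from 0.516 to 0.813 over the 4 shares). The mRNA of the receptor with little kinase activity and of the one without a known ligand thus stood above that of Egfr and Erbb4, which have both.

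Among the 5 ligands Hbegf, the heparin-binding ligand of EGFR and ERBB4, was the highest in 14 of 14 libraries. Its level was 1670 ± 389 normalized counts per kb in WT, and it made up 71.8% ± 8.13 of the summed level of the 5 ligands in WT and 73.9% ± 11.8 in OE/OE. None of the 5 ligand shares passed a test between genotypes (exact sign-flip test, p from 0.281 to 0.906). Tgfa, which encodes TGF-alpha, was next with 469 ± 136 per kb in WT. Ereg (80.3 ± 42.8), which encodes epiregulin, and Btc (73.3 ± 26.4), which encodes betacellulin, were close, and Ereg was above Btc in 3 of 7 WT and 3 of 7 OE/OE libraries. Nrg1, the neuregulin, was the lowest of the 10 genes with 22.8 ± 7.89 per kb, at percentile 20.6 of the levels of all genes. Errfi1 was the highest of the 10 in every library. At 11296 ± 1217 per kb it stood at percentile 99.3 of all genes, and it was 7.13 ± 2.08 times the level of Hbegf in WT and 6.23 ± 1.61 times in OE/OE.

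**Figure D1:**
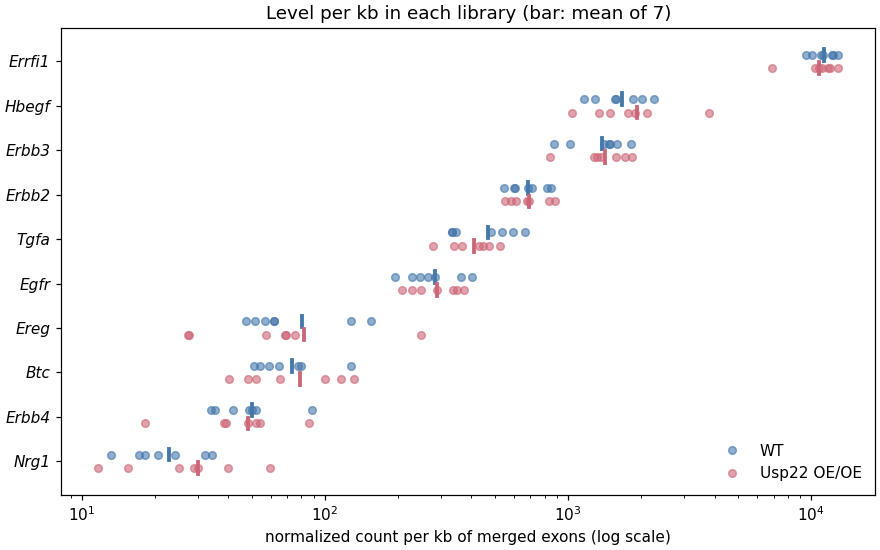
Normalized counts per kb of merged exons (horizontal log axis) of the 10 genes in each of the 7 WT (blue) and 7 Usp22 OE/OE (red) libraries, with a bar at each mean. Errfi1 stood apart at 6870 or more in every library, while neighbouring genes lower down often overlapped, for example Hbegf with Erbb3 and Ereg with Btc.

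Neighbours in this order were not always separated by more than the spread between mice. In WT mice the ranges did not overlap between Errfi1 and Hbegf, between Erbb3 and Erbb2, and between Egfr and Ereg, whereas they overlapped for the other 6 neighbouring pairs. Hbegf exceeded Erbb3 in 4 of 7 WT and 4 of 7 OE/OE libraries, so these 2 genes had no settled order. Erbb2 was above Tgfa, and Tgfa above Egfr, in all 14 libraries although the ranges overlapped between mice in WT. On GRCm38 the receptor genes Egfr (chromosome 11, 16752203 to 16918158) and Erbb2 (chromosome 11, 98412470 to 98437716) are on the plus strand, and Erbb3 (chromosome 10, 128567523 to 128589652) and Erbb4 (chromosome 1, 68032186 to 69108059) are on the minus strand. Tgfa (chromosome 6, 86195223 to 86275719) and Errfi1 (chromosome 4, 150853919 to 150868892) are on the plus strand, and Nrg1 (chromosome 8, 31814551 to 32884029) is on the minus strand. Hbegf (chromosome 18, 36504927 to 36515805, minus strand) shares no exonic bases with another gene, and neither do Egfr, Erbb3, Erbb4, Btc or Errfi1. Of the exonic bases of Nrg1, Ereg, Tgfa and Erbb2, 4.66%, 3.42%, 1.82% and 0.17% overlap genes on the opposite strand, and whether the counting used strand was not given in the sources used here.

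A difference between Usp22 OE/OE and WT MECs passed the test in none of the 10 genes. With limma on log2(normalized count + 1) and the littermate pair as a block, 0 of 10 had an unadjusted p of 0.05 or less, beside 3.81% of all 16124 genes (1.95% rose and 1.85% fell in OE/OE). The count was also 0 of 10 at an adjusted p under 0.05, beside 0.0124% of all genes. The smallest unadjusted p of a member was 0.185 with limma, 0.183 with edgeR and 0.204 with DESeq2, each time for Tgfa. The WT and OE/OE values of all 10 genes overlapped. The share of all genes that overlap was not counted, so this does not set the 10 apart. Of the 10 estimates 6 were positive and 4 negative, and their median size was 0.0984 on the log2 scale, close to the 0.0897 of all genes.

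Egfr, Erbb2 and Erbb3 had the narrowest intervals of the 10 genes. Egfr was between 2205 and 4554 normalized counts in WT (median 2993) and between 2354 and 4224 in OE/OE (median 3257). The fitted fold was 1.03, with a 95% interval of 0.897 to 1.19 (limma, unadjusted p = 0.632). The OE/OE values all lay within the WT range, and the mice of pair 7 were the highest in each. Erbb2 was between 2850 and 4429 in WT (median 3553.8) and between 2858 and 4611 in OE/OE (median 3514), with a 95% interval of the fold of 0.830 to 1.21 (unadjusted p = 0.995). It was lower in the OE/OE mouse in 5 of 7 pairs and higher in pairs 4 and 8. Erbb3 was between 5239 and 10886 in WT (median 8899) and between 5047 and 10964 in OE/OE (median 8177), with an interval of 0.878 to 1.20 (unadjusted p = 0.720). For these 3 receptors a change of 1.21-fold or more in either direction therefore lay outside the 95% interval. Erbb4 was between 419 and 1092 in WT (median 605) and between 225 and 1063 in OE/OE (median 594), with a wider interval of 0.663 to 1.28 (unadjusted p = 0.597). The lowest value, 225, belonged to the OE/OE mouse of pair 4.

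All 5 ligands had wider intervals than these 3 receptors. Hbegf was between 5619 and 10882 in WT (median 7596) and between 5015 and 18432 in OE/OE (median 8498), and the fold of 1.09 had a 95% interval of 0.819 to 1.44 (limma, unadjusted p = 0.530). The highest value belonged to the OE/OE mouse of pair 1, and the other 6 OE/OE mice lay within or just below the WT range. Tgfa was between 2159 and 4330 in WT (median 3128) and between 1807 and 3399 in OE/OE (median 2804). Its fold was 0.885, with an interval of 0.730 to 1.07 (unadjusted p = 0.185), and it was lower in 5 of 7 pairs. Btc was between 232 and 578 in WT (median 292) and between 182 and 596 in OE/OE (median 297), with an interval of 0.741 to 1.43 (unadjusted p = 0.847). The groups overlapped for both genes. Nrg1 was between 136 and 354 in WT (median 214) and between 121 and 616 in OE/OE (median 301), with an interval of 0.789 to 1.90 (unadjusted p = 0.328). Ereg was the least certain of all, between 195 and 641 in WT (median 254) and between 113 and 1024 in OE/OE (median 283). Its interval of 0.427 to 1.76 (unadjusted p = 0.659) holds both a fall to 0.427 of the WT level and a rise to 1.76 times that level.

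Errfi1, which encodes the feedback inhibitor MIG6 and is itself induced by EGFR signaling, was between 34134 and 46114 in WT (median 40169) and between 24607 and 46290 in OE/OE (median 39578). The fold was 0.946 with a 95% interval of 0.754 to 1.19 (limma, unadjusted p = 0.592). All OE/OE mice lay in the range of WT except the mouse of pair 4, the lowest, and that of pair 3, the highest. When the signs of the 7 pairs were flipped in an exact test (two-sided, smallest possible p 0.0156) the 10 genes had p between 0.234 (Tgfa) and 0.984 (Erbb2).

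**Figure D2:**
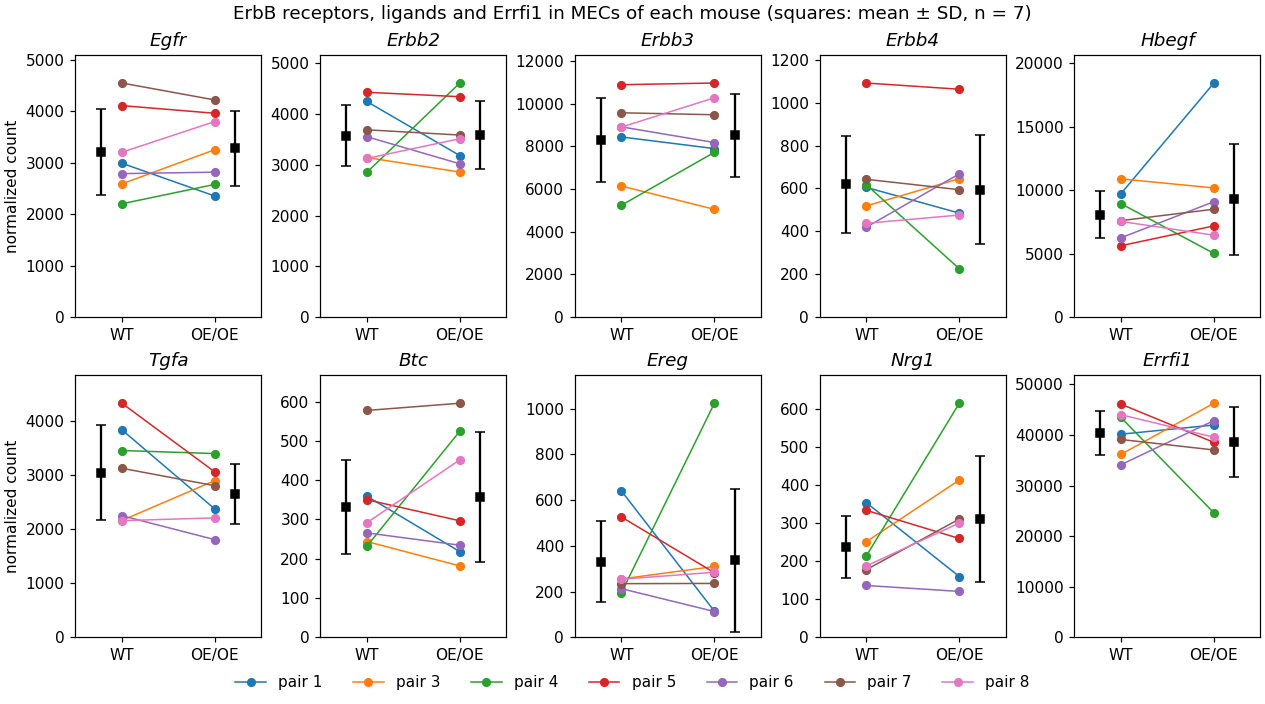
Normalized counts (vertical axes from 0) of each gene in WT and OE/OE mice, with a line joining littermates in the color of their pair and squares for the mean ± SD of 7 mice. The groups overlap in all 10 panels, and the lines of pair 4 (green) and pair 1 (blue) are the steepest in Ereg.

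Egfr and Erbb3 varied mainly between litters. Of the spread of the log2 values over the 14 libraries, the pair accounted for 87.8% in Egfr and 86.2% in Erbb3, above the median of all genes (73.9%), whereas genotype accounted for at most 6.19% in any of the 10 genes (Tgfa), the median of all genes being 1.43%. By their degrees of freedom alone the pair would take 46.2% and genotype 7.69%. All 10 genotype shares lay below 7.69%, but so did the median of all genes (1.43%, beside 1.35% for the 10). This does not set the 10 genes apart. In Ereg and Errfi1 the pair accounted for only 30.0% and 28.1%, less than the 46.2%, so littermates were no more alike in these genes than mice of different litters. The pair ratios of Ereg had an SD of 1.49 on the log2 scale, at percentile 97.8 of all genes, and those of Nrg1 an SD of 0.895, at percentile 88.2.

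Pairs 1 and 4 lay at opposite ends for Ereg, Nrg1, Btc, Erbb2 and Hbegf. In pair 1 Ereg fell by 2.48 on the log2 scale from WT to OE/OE (641 to 114 normalized counts), and in pair 4 it was 2.39 higher (195 to 1024). Nrg1 was 1.14 lower in pair 1 and 1.52 higher in pair 4, and Btc changed to 0.608 and 2.26 times the WT level. Hbegf went the other way, 0.92 higher in pair 1 and 0.83 lower in pair 4. For Erbb4 and Errfi1 the largest change was also in pair 4, where the OE/OE mouse had 0.366 and 0.566 times the level of its littermate. Over the 10 genes the median size of the pair ratio was 0.555 in pair 1 and 0.827 in pair 4 on the log2 scale, against 0.274 and 0.431 for all genes. In the other 5 pairs it was between 0.0936 and 0.322. It was also above that of all genes in pair 3 (0.322 against 0.208) and pair 6 (0.276 against 0.176), and below it in pairs 5, 7 and 8.

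Marker lists also moved in pairs 1 and 4, but not only there. On the log2 scale (OE/OE minus WT) the proliferation list changed by -2.46 in pair 3 and -1.45 in pair 5. The fibroblast list changed by -0.92 in pair 3 and the adipocyte list by -1.08 in pair 8. In pair 4 the mean log2 level of 10 proliferation genes was 5.73 higher in the OE/OE mouse than in its littermate. For this list the OE/OE mouse was the highest of all libraries (10.2) and the WT mouse the lowest (4.45). In the same OE/OE mouse the adipocyte, endothelial, Schwann cell and dissociation stress lists were the lowest of all libraries, at 5.59, 10.6, 7.70 and 13.7. The fibroblast and macrophage lists were also lowest there, at 11.7 and 8.21. In pair 1 the endothelial (0.93), Schwann cell (0.82), stress (0.80), adipocyte (0.68) and fibroblast (0.51) lists were higher in the OE/OE mouse on the log2 scale. In the same pair the lymphocyte (-2.44), proliferation (-1.36), luminal progenitor and alveolar (-0.79) and basal and myoepithelial (-0.59) lists were lower. For the lymphocyte list it was the WT mouse of pair 1 that stood apart, at 7.94 beside 5.52 or less in all other libraries. The OE/OE mouse of that pair was at 5.50. The part of these lists in the values of the ErbB genes was not tested. Without pairs 1 and 4 there were again 0 of 10 genes with an unadjusted p of 0.05 or less in limma, beside 11.2% of all genes. Nrg1 then came closest, with a log2 difference of 0.33 (limma, unadjusted p = 0.121), followed by Erbb4 with 0.19 (unadjusted p = 0.145).

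**Figure D3:**
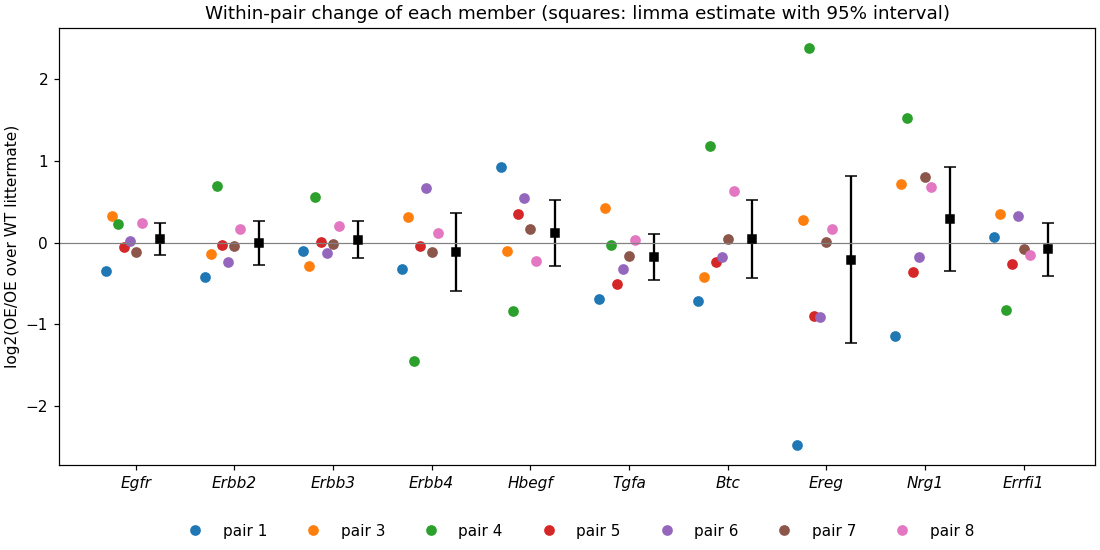
Log2 ratio of OE/OE to WT (vertical axis) within each of the 7 littermate pairs (colored points) for the 10 genes, and the limma estimate with its 95% interval (black squares). All intervals include 0, and pairs 1 and 4 form the ends for Ereg, Nrg1, Btc, Erbb2 and Hbegf.

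Some of the 10 genes had pair ratios that varied together, while others, such as Egfr and Erbb4 (r = -0.03) or Erbb3 and Tgfa (r = 0.04), did not. The ratios of Ereg and Nrg1 were high and low in the same pairs (Pearson r = 0.96, exact permutation p = 0.00198 over 7 pairs, adjusted p = 0.0232 over the 45 relations among the 10 genes, Spearman rho = 0.86), and r was 0.96 after leaving out pairs 1 and 4, the farthest from the median. Over the 14 libraries, centred on the genotype means, their r was 0.92. Hbegf went against Ereg (r = -0.98, exact p = 0.000595, adjusted p = 0.0232, rho = -0.96), with r = -0.91 without those 2 pairs, but only -0.59 over the 14 libraries and -0.41 without the OE/OE mouse of pair 4. In every pair but pair 7 a higher Hbegf thus came with a lower Ereg. Among receptors, Erbb2 and Erbb3 moved together (r = 0.91, exact p = 0.00972, adjusted p = 0.0398, rho = 0.86, r = 0.85 without the 2 farthest pairs), and Erbb2 moved with Btc (r = 0.95, exact p = 0.00198, adjusted p = 0.0232, rho = 0.82, r = 0.83 without them). Egfr moved with its ligand Tgfa (r = 0.90, exact p = 0.00794, adjusted p = 0.0397, rho = 0.89, r = 0.74 without pairs 1 and 3). Erbb3 and Errfi1 went in opposite directions (r = -0.94, exact p = 0.00258, adjusted p = 0.0232, rho = -0.96, r = -0.68 without pairs 3 and 4). The relation of Erbb4 with Errfi1 (r = 0.89, exact p = 0.0133, adjusted p = 0.0467, rho = 0.64) rested on pairs 4 and 6, since r was 0.40 without them. Over the 14 libraries, which also carry the differences between litters, r was 0.65 for Erbb2 with Erbb3, 0.62 for Erbb2 with Btc, 0.25 for Egfr with Tgfa, -0.08 for Erbb3 with Errfi1 and 0.70 for Erbb4 with Errfi1. The relations of Egfr with Tgfa and of Erbb3 with Errfi1 were thus closer in the ratios than in the levels.

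In all, 22 of the 45 relations had an exact p of 0.05 or less and 13 an adjusted p under 0.05. By rank (Spearman) 11 had an exact p of 0.05 or less and 0 an adjusted p under 0.05, the lowest being 0.0625. Many other genes followed the same pairs, however. The absolute r was at least 0.75 in 48.9% of the relations among the 10 genes and in 20.2% of their relations with all genes of the table, and for Ereg alone 31.9% of all genes reached it. A correlation as close as that of Nrg1 with Ereg was found for 1.28% of all genes with Ereg, and as close as that of Hbegf with Ereg for 0.391%. For Egfr and Tgfa 1.52% of all genes were as close to Egfr. The share was larger for Erbb2 and Erbb3, with 7.499% of all genes as close to Erbb2 and 2.65% as close to Erbb3. For Erbb2 and Btc 2.24% were as close to Erbb2. With Errfi1 it was 0.992% for Erbb3 and 1.79% for Erbb4.

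The same ratios were set against 12 cell type and state lists, giving 120 relations, of which 28 had an exact p of 0.05 or less and 0 an adjusted p under 0.05. The largest r was that of Erbb2 with the endothelial list (r = -0.95, exact p = 0.00397, adjusted p = 0.0584, rho = -0.71), with r = -0.56 without pairs 1 and 4. The smallest p was that of Hbegf with the dissociation stress list (r = 0.95, exact p = 0.000794, adjusted p = 0.0584, rho = 0.93), and here r was 0.91 without pairs 1 and 4. Ereg (r = -0.94, exact p = 0.00159, adjusted p = 0.0584, rho = -0.86) and Nrg1 (r = -0.89, exact p = 0.00714, adjusted p = 0.0635, rho = -0.89) went against that list, and r was -0.94 and -0.93 without those pairs. The list holds 12 early-response and heat-shock genes such as Fos, Jun and Hspa1a, and 8 of them are also among the EGF-induced transcripts used below. Hbegf is likewise known as an early-response gene. The adipocyte list was also close to Ereg (r = -0.94, exact p = 0.0131, adjusted p = 0.0924, rho = -0.71), but r was only -0.29 without pairs 1 and 4.

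**Figure D4:**
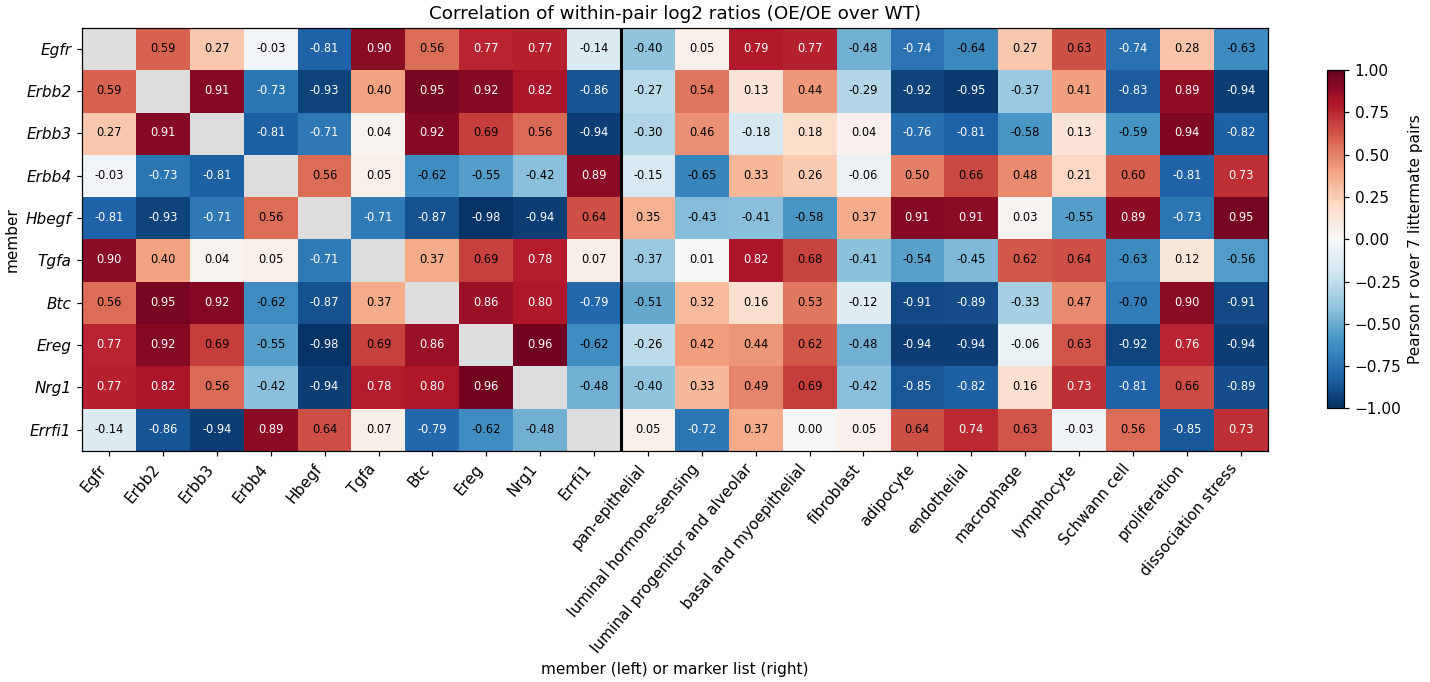
Pearson correlation over the 7 littermate pairs (color, with the value printed) between the within-pair log2 ratios of the 10 genes (rows) and those of each other gene (left) or of the mean of each marker list (right of the line). Erbb2, Erbb3, Btc, Ereg and Nrg1 are positively correlated with each other and negatively with Hbegf and with the dissociation stress list.

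Over all 14 libraries, centred on the genotype means, the closest genes of the whole table differed from one member to the next. For Egfr they were Gabpa (r = 0.97), Zfx (0.97) and Atp11b (0.95), for Erbb2 Fubp3 (0.93), Tor4a (0.93) and E2f3 (0.92), and for Erbb3 Zfp266 (0.95), Usp28 (0.95) and Nlk (0.94). Erbb4 was closest to Fgfr1 (0.94), another receptor tyrosine kinase, Slc41a1 (0.93) and Slc22a21 (0.92). Hbegf was closest to Edn1 (0.94), which encodes the vasoconstrictor endothelin 1, Zfp296 (0.94) and Vcam1 (0.93), and Tgfa to Mapk4 (0.94), Map2k4 (0.91) and Plpbp (0.91). For Ereg they were Trmt6 (0.95), Cdc25a (0.94) and Moxd1 (0.94), for Nrg1 Atxn7l3b (0.95), 9330162G02Rik (0.95) and Rbm34 (0.94), for Btc Gm20744 (0.92), Ick (0.90) and Rab11fip4 (0.89), and for Errfi1 Gm30003 (0.91), Wsb1 (0.90) and Taf4b (0.90). No member was among the 3 closest genes of another. These correlations are a description over libraries that share litters and depth.

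The rest of the pathway was examined with lists that contain none of the 10 genes. Of 5 other EGF-like ligands analysed, 0 passed an unadjusted p of 0.05. Areg, which encodes amphiregulin, had a WT mean of 14491 ± 4230 normalized counts per kb. It was above Hbegf in 14 of 14 libraries, and above Errfi1 in 6 of 7 WT and 3 of 7 OE/OE libraries. It was between 9082 and 24452 normalized counts in WT (median 19317) and between 5857 and 30826 in OE/OE (median 14451), with a log2 difference of -0.25 (95% interval -0.63 to 0.13, limma unadjusted p = 0.170) and a lower value in 5 of 7 pairs. Groups overlapped widely. Egf was hardly expressed (11.0 ± 4.10 normalized counts in WT mice, 8.89 ± 5.17 in OE/OE), and Epgn, Nrg2 and Nrg4 had WT means of 350, 161 and 500. Nrg3 was not analysed here.

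Among 102 analysed genes of 5 lists (other ligands, ligand processing, receptor turnover and inhibition, adaptors and effectors, EGF-induced transcripts), in OE/OE mice 3 were higher and 1 was lower at an unadjusted p of 0.05 or less, or 3.92% beside the 3.81% of all genes. None of the 4 passed after adjustment (adjusted p = 1.00 for each). Rhbdf2, which encodes iRhom2, a partner of ADAM17 in its maturation and in the shedding of EGFR ligands, was between 2047 and 3191 normalized counts in WT (median 2650) and between 2389 and 4199 in OE/OE (median 2838). Its log2 difference was 0.21 with an SE of 0.068 (limma, unadjusted p = 0.0133), and it was higher in 7 of 7 pairs although the groups overlapped. Adam12, a metalloprotease able to shed HB-EGF, was between 217 and 897 in WT (median 316) and between 166 and 653 in OE/OE (median 184), with a log2 difference of -0.48 and an SE of 0.16 (unadjusted p = 0.0164). It was lower in 6 of 7 pairs.

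Ptprk, a receptor-type phosphatase, was between 5111 and 7296 in WT (median 6077) and between 5752 and 9417 in OE/OE (median 6554), with a log2 difference of 0.18 and an SE of 0.074 (limma, unadjusted p = 0.0364). It was higher in 6 of 7 pairs. Pik3r3, a regulatory subunit of phosphoinositide 3-kinase, was between 783 and 1041 in WT (median 958) and between 857 and 1359 in OE/OE (median 1107), with a log2 difference of 0.26 and an SE of 0.086 (unadjusted p = 0.0140). It was higher in 7 of 7 pairs. These 4 genes stood in 3 of the lists, 2 of 11 in ligand processing, 1 of 21 in receptor turnover and inhibition and 1 of 37 in adaptors and effectors.

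Of 28 transcripts that EGF is known to induce, such as Egr1, Dusp6 and Etv5, 0 passed an unadjusted p of 0.05. The estimates were positive in 22 of 28, beside 7996 of all 16124 genes. The median log2 difference was 0.08, beside -0.0015 for all genes. This was not particular to the EGF-induced list. Positive estimates also prevailed in ligand processing (8 of 11), receptor turnover and inhibition (14 of 21) and adaptors and effectors (26 of 37). Among the other EGF-like ligands 1 of 5 was positive. Etv5 had the largest estimate in the EGF-induced list (0.26, limma unadjusted p = 0.160, higher in 6 of 7 pairs). The list shares genes with the stress list, whose mean was 14.7 ± 0.26 in WT and 14.9 ± 0.59 in OE/OE on the log2 scale (exact sign-flip p = 0.578).

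**Figure D5:**
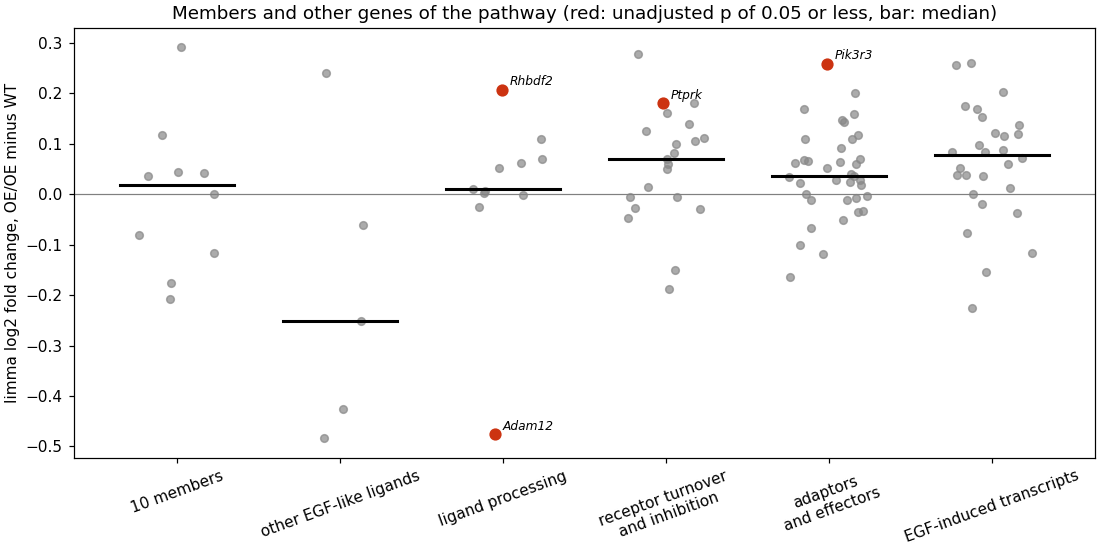
Limma log2 difference between OE/OE and WT (vertical axis) for the 10 genes and for the genes of 5 further pathway lists, with a bar at each median and those with an unadjusted p of 0.05 or less in red. The 4 red genes are Rhbdf2, Adam12, Ptprk and Pik3r3, and no ErbB receptor, member ligand or Errfi1 is among them.

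With all 7 pairs, none of the 12 marker lists reached an exact sign-flip p of 0.05 between genotypes, and the adipocyte, pan-epithelial and fibroblast lists came closest. The mean log2 level of 9 adipocyte markers was 7.92 ± 0.636 in WT and 7.16 ± 0.873 in OE/OE. It fell in 6 of 7 pairs (p = 0.0625, exact sign-flip test, two-sided). Pair 1 was the only pair in which it rose, so leaving out pair 1 gave the smallest exact p that 6 pairs allow (0.0313). Leaving out any other single pair gave an exact p between 0.0938 and 0.125. The 11 pan-epithelial markers had means of 14.5 ± 0.219 in WT and 14.7 ± 0.261 in OE/OE (p = 0.0625, exact). Those of the 9 fibroblast markers were 12.9 ± 0.417 and 12.5 ± 0.544 (p = 0.0938, exact). Of the single markers 4 of 9, 2 of 11 and 3 of 9 in these lists had an unadjusted limma p of 0.05 or less, beside 3.81% of all genes. These 3 lists are those with the smallest exact p. Of the remaining lists, the luminal progenitor and alveolar list held 1 such marker of 7, the dissociation stress list 1 of 12 and the others 0. No marker of any list was at 0 in any library. The luminal hormone-sensing (p = 0.609, exact) and the basal and myoepithelial (p = 0.891, exact) lists differed less, and the other 7 lists had exact p between 0.234 and 0.922. With the adipocyte mean added to the fit as a covariate, 5 of the 10 genes passed an unadjusted p of 0.05, beside 18.0% of all genes. These were Ereg (log2 difference -1.35), Hbegf (0.54), Erbb2 (-0.27), Btc (-0.44) and Tgfa (-0.34), with limma unadjusted p of 0.000118, 0.00103, 0.0121, 0.0137 and 0.0370. The covariate spanned 5.59 to 8.65 over the libraries, and its lowest value was the OE/OE mouse of pair 4. Without pair 3, 1 of the 10 genes passed, beside 2.96% of all genes, which was Tgfa with a log2 difference of -0.28 (limma, unadjusted p = 0.0335).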

How the data were processed

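RNA of MECs from 7 WT and 7 Usp22 OE/OE littermates (14 libraries, paired reads of 75 bases, poly(A) selected) was analysed. According to the methods, the authors mapped reads to mm10 with TopHat2 2.0.10, counted fragments on GENCODE genes with HTSeq 0.6.0, required 10 fragments in 7 or more libraries and applied DESeq 1.18.0 size factors. The deposited values are thus a signal, normalized counts that are never negative. In every library 100% of them were a multiple of what 1 fragment is worth (tolerance 0.01), which gave the fragments and the depth. The limma intervals are for the mean difference within littermate pairs. They leave out the spread between litters and are not ranges of single mice.

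The main test was limma 3.58.1 (R 4.3.3, lmFit, eBayes with trend) on log2(normalized count + 1) over all 16124 genes with the littermate pair as a block, in place of the study's paired test per gene. An unadjusted p of 0.05 or less was used as in the study, with Benjamini-Hochberg adjustment beside it. The numbers come from littermates, whose deviations correlated at 0.203 to 0.837 over genes in the 7 pairs. Single values were tested by exact sign flips or exact permutations of the pairs. edgeR 4.0.16 and DESeq2 1.42.0 were run on the recovered fragments. Scripts were tested on simulated data. Exon lengths, positions and transcripts came from GENCODE M21 (GRCm38), and identity from global alignment of the translated stretches with a BLOSUM matrix. No library was left out. The members and lists were chosen with earlier results of these data known. Apart from the 10 genes, the text names list genes past the unadjusted threshold, Usp22, Areg and the 3 genes closest to each member. Etv5 and the levels of the other ligands were named after their values were seen.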

Additional observations from a re-analysis of the deposited data

Results flagged for a closer look

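Among 26 groups of 7 mice (10 genes and 3 lists in both genotypes), 2 held a mouse far from the others, where chance alone gives such a flag in about 1 in 20 groups. Both were the OE/OE mouse of pair 4. For Errfi1 its 24607 normalized counts lay below the next OE/OE mouse at 37049, a gap of 0.6476 of the range of the group on the log2 scale. The mean log2 level of the dissociation stress list was 13.7 in the same mouse and 14.7 in the next, a gap of 0.5911 of the range.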

How the results depend on the processing

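Of 200 refitted values of the 10 genes, 168 kept their direction and their side of the threshold, 28 changed sign and 4 kept their direction with an unadjusted p of 0.05 or less. Such a p was reached by 6 of the 200, Btc and Erbb2 with the adipocyte covariate being among those that changed sign. The count of genes called, 614, was 182 without the littermate block (1 of 102 list genes, Pik3r3), 2908 with the adipocyte mean as a covariate (31 list genes), 1805 without pairs 1 and 4 (13 list genes) and 991 with the proliferation mean as a covariate (7 list genes), the last 2 alternatives having been chosen after seeing the data. Leaving out 1 pair gave 381 (without pair 6) to 1366 genes (without pair 4), 2 (without pair 5) to 14 list genes (without pair 4), and 0 to 1 members. With the adipocyte covariate 5 members were called, and the log2 difference became -0.44 for Btc, -0.0997 for Egfr, -0.27 for Erbb2, -0.13 for Erbb3, 0.16 for Erbb4, 0.13 for Errfi1 and -0.33 for Nrg1. Without pairs 1 and 4 it was -0.033 for Btc, -0.055 for Erbb2, -0.041 for Erbb3, 0.19 for Erbb4 and 0.039 for Errfi1. With the luminal hormone-sensing mean as a covariate Btc was at -0.0025 and Erbb2 at -0.040. Erbb2 was at -0.014 with the proliferation covariate, -0.045 after quantile normalization (Erbb3 -0.011) and -0.00048 with DESeq2. Leaving out single pairs turned Btc (-0.15 to 0.17), Egfr (-0.0032 to 0.11), Erbb2 (-0.11 to 0.070), Erbb3 (-0.050 to 0.090), Erbb4 (-0.25 to 0.11), Ereg (-0.64 to 0.17, the latter without pair 1), Errfi1 (-0.15 to 0.043), Hbegf (-0.016 without pair 1 to 0.28) and the proliferation list (-0.81 without pair 4 to 0.55). Rhbdf2 and Adam12 were not called without the block, Adam12 also not without pair 5, and Ptprk was lost in 9 of 20 alternatives. The adipocyte list difference was -0.997 without pair 1, the only pair in which it rose (exact p = 0.0313, the smallest that the remaining pairs allow). The causes were not tested.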
